A study of Mus musculus with 2 samples.

Results

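Azurophil granule genes and early granulocyte-monocyte genes were described in single bone marrow stem and progenitor cells of Trmt6 WT and Trmt6 cKO mice. The set held 10 genes of the 27998 in the matrices: Mpo, Elane, Prtn3, Ctsg, Ms4a3, Ly6c2, Plac8, Igsf6, Fcgr3 and Cst7. They were chosen on their level in cKO against WT cells of these same libraries, so the fall of each gene over all cells is a description and supports nothing by itself. All 10 symbols were found in both libraries.

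Azurophil, or primary, granules are the first granules that form when a myeloid progenitor enters the granulocyte line, and their contents are transcribed in a short window at the progenitor stage. The window opens with C/EBP, PU.1, Myb and core binding factor at the promoters, and it closes before the secondary granules appear. Stem cells and multipotent progenitors can carry low levels of some of these transcripts, which is called myeloid priming.

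RNA of single cells was measured by droplet sequencing of sorted Lin- Sca-1+ c-Kit+ (LSK) bone marrow cells, with 1 library per genotype, from 3-month-old mice on a C57BL/6 background. The labels give the genotype Trmt6fl/fl for WT and Trmt6fl/fl with MX1-cre for cKO, whereas the study names Trmt6+/+ Mx1-Cre controls, treated with pIpC as the cKO mice were, for this experiment and Trmt6fl/+ Mx1-Cre mice in its methods. Mx1-Cre is switched on by interferon, and its activity is not limited to blood cells. Trmt6 is part of the tRNA methyltransferase that places the m1A mark. The number of mice behind a library is not given in the sources used here, and genotype and library cannot be told apart.

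The unit was the UMI, a molecular identifier that counts each captured transcript once. After the limits of the study on genes, mitochondrial and haemoglobin UMIs and after removal of likely doublets, 8149 of 8869 WT barcodes and 8485 of 9260 cKO barcodes were kept. The cKO library was deeper, with a median of 9994 UMIs per cell against 4111 in WT, and 24 barcodes occurred in both libraries. Kit stood at 64.8 CPM in WT against 21.7 CPM in cKO and Ly6a, which encodes Sca-1, at 34.8 and 142 CPM, where CPM is counts per 1e6 UMIs of the summed cells. Of the lineage genes, Itgam stood at 10.7 and 1.15 CPM and Ly6g at 1.73 and 0 CPM. Trmt6 itself stood at 63.3 CPM in WT against 50.1 CPM in cKO, which checks nothing because 3′ reads need not fall in the deleted part. All intervals given are 95% intervals that cover counting error alone, and with 1 library per genotype no difference has a replicate check.

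The promoters of the 4 granule genes that the results turn on are shown first, because Prtn3 and Elane lie in one cluster and yet differed in their levels. Each window runs from 250 bases before to 50 bases after the RefSeq start site (GRCm38.p6) and reads 5′ to 3′ on the strand of the gene. The windows are chr11:87793534-87793833 on the plus strand for Mpo, chr10:79886062-79886361 on the plus strand for Elane, chr10:79879417-79879716 on the plus strand for Prtn3 and chr14:56102525-56102824 on the minus strand for Ctsg. Capitals mark every match, on either strand, to GAGGAA (PU.1), CAACNG (Myb), TGTGGT (core binding factor) or TTNNGCAA (C/EBP), and no marked matches overlap.
Mpo: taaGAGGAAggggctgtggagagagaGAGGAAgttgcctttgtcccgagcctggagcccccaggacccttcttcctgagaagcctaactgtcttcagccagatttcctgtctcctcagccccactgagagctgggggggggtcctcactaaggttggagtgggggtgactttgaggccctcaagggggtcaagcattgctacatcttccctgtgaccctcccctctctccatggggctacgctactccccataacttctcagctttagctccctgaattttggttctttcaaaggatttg
Elane: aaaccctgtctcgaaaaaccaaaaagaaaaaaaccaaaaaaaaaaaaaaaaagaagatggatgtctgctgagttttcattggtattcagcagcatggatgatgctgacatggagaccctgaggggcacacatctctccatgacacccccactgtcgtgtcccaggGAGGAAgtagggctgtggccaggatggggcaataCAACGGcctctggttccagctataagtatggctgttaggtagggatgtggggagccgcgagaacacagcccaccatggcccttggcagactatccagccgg
Prtn3: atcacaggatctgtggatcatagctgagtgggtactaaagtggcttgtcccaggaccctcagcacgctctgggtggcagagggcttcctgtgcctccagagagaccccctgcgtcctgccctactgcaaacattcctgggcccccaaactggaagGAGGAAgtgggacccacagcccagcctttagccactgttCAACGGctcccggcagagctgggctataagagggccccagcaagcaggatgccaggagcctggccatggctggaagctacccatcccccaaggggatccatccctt
Ctsg: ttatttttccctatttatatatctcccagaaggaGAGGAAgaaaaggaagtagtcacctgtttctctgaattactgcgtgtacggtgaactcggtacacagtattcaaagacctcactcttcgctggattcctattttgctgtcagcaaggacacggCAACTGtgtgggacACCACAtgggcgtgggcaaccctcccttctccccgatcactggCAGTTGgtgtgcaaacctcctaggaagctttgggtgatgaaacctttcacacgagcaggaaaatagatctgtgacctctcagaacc

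Elane and Prtn3 share an arrangement, with GAGGAA at -85 and CAACGG at -51 in Elane and at -95 and -56 in Prtn3, where positions give the first base of the match relative to the start site. Mpo held GAGGAA at -247 and -224 and no match to the other 3 motifs. Ctsg held GAGGAA at -216, CAACTG at -93, the reverse of the core binding factor motif at -79 and the reverse of the Myb motif at -36. Over the 13 windows listed for the 10 genes, GAGGAA was found in 11 windows of 9 genes, CAACNG in 6 of 5 genes, TGTGGT in 5 of 4 genes and TTNNGCAA in 5 of 4 genes. Among all 32851 promoters of the same length, the shares with a match were 28.3%, 35.0%, 16.8% and 10.8% in that order. A match describes letters in a window and not a bound site.

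Every one of the 10 genes was lower in the cKO library, and the falls differed widely between them. Among the 9156 genes that reached 5 CPM in either library, 5.24% were lower past a log2 ratio of -1, 2.92% were higher past 1 and 1.61% were lower past -2. All 10 genes were past -1 and 9 were past -2, which the choice of the genes fixes, and Ly6c2, Igsf6 and Fcgr3 reached 5 CPM in WT alone. Their median log2 ratio (cKO over WT) was -3.52, beside -0.069 over all genes tested. A summed level does not tell fewer cells with a transcript from less transcript per cell.

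Mpo (ENSMUSG00000009350, chr11:87793581-87804413) encodes myeloperoxidase, the haem enzyme that makes hypochlorous acid in the granule. It stood at 2181 CPM in WT (2166 to 2195) and 77.1 CPM in cKO (75.3 to 79.0), a log2 ratio of -4.82 (-4.86 to -4.79). Elane (ENSMUSG00000020125, chr10:79886247-79888215) encodes neutrophil elastase. It stood at 1675 CPM in WT (1663 to 1688) and 18.3 CPM in cKO (17.4 to 19.2), a log2 ratio of -6.52 (-6.59 to -6.44). This was the deepest fall of the 10 genes over all kept cells, though not without the 1% of cells with the most UMIs of each gene, with a cKO level of 1.09% of the WT level.

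Prtn3 (ENSMUSG00000057729, chr10:79874476-79883174) encodes proteinase 3 and ends 3072 bases before Elane begins on the same strand. It stood at 1588 CPM in WT (1576 to 1600) and 355 CPM in cKO (351 to 359), a log2 ratio of -2.16 (-2.18 to -2.14). Ctsg (ENSMUSG00000040314, chr14:56099881-56102574) encodes cathepsin G, a serine protease of the same granule. It stood at 925 CPM in WT (916 to 934) and 275 CPM in cKO (271 to 278), a log2 ratio of -1.75 (-1.77 to -1.73). Prtn3 therefore fell less than its neighbour Elane by 4.35 on the log2 scale (4.28 to 4.43) and less than Mpo by 2.66 (2.62 to 2.70). The difference of Ctsg from Mpo was 3.07 (3.03 to 3.11) and from Elane 4.76 (4.69 to 4.84). Between Ctsg and Prtn3 it was 0.41 (0.38 to 0.44).

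The other 6 genes ranged from -2.29 for Plac8 to -5.64 for Igsf6 in log2 ratio, inside the span of the 4 granule genes. Plac8 (ENSMUSG00000029322, chr5:100553725-100572245), a small cysteine-rich protein of myeloid and lymphoid cells, was the most abundant of the 10 in both libraries, at 2580 CPM in WT against 526 CPM in cKO (log2 ratio -2.29). Ms4a3 (ENSMUSG00000024681, chr19:11629496-11640851), a membrane protein of granulocyte-monocyte progenitors, stood at 143 and 14.97 CPM (-3.26). Cst7 (ENSMUSG00000068129, chr2:150570415-150578944) encodes cystatin F, an inhibitor of the cathepsins that activate granule proteases, and stood at 102 and 15.8 CPM (-2.69).

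Ly6c2 (ENSMUSG00000022584, chr15:75108158-75111970), a surface antigen of monocytes and some T cells, stood at 106 CPM in WT against 4.27 CPM in cKO (log2 ratio -4.63). Its near-identical neighbour Ly6c1 could share reads with it, so its counts are uncertain. Igsf6 (ENSMUSG00000035004, chr7:121064067-121074572), an immunoglobulin superfamily protein of myeloid cells, stood at 34.2 and 0.680 CPM (-5.64), the latter from 59 UMIs. Fcgr3 (ENSMUSG00000059498, chr1:171051174-171064935), a low-affinity receptor for IgG, stood at 19.7 and 1.43 CPM (-3.78), the latter from 124 UMIs.

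Ordered by level, the WT library ran Plac8, Mpo, Elane, Prtn3, Ctsg, Ms4a3, Ly6c2, Cst7, Igsf6 and Fcgr3. The intervals of the neighbours Ly6c2 (103 to 109 CPM) and Cst7 (98.9 to 105 CPM) overlapped. The cKO library ran Plac8, Prtn3, Ctsg, Mpo, Elane, Cst7, Ms4a3, Ly6c2, Fcgr3 and Igsf6, and Cst7 (15.01 to 16.7 CPM) overlapped with Ms4a3 (14.2 to 15.8 CPM). Prtn3 and Ctsg thus stood above Mpo and Elane in cKO and below them in WT. UMIs of a 3′ library count transcript ends, so the levels were not divided by length.

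**Figure D1:**
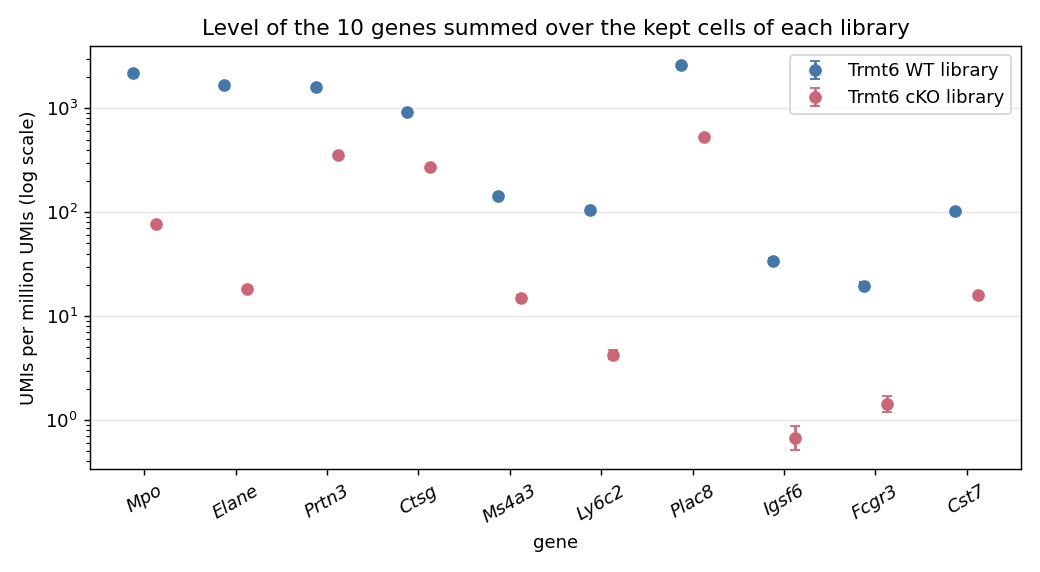
Level of each of the 10 genes in CPM (log axis) in the Trmt6 WT library (blue) and the Trmt6 cKO library (red), with exact Poisson 95% intervals that are mostly smaller than the points. Each cKO point lies below its WT point, and the gap is widest for Elane and narrowest for Ctsg.

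The distribution over single cells separated the genes further. To compare shares of cells at equal depth, cells were thinned to 2000 UMIs each, and 205 WT and 105 cKO cells with fewer were dropped. Mpo was found in 58.0% of thinned WT cells (56.9 to 59.1) and 4.24% of thinned cKO cells (3.82 to 4.69). Elane was found in 28.0% (27.0 to 29.0) and 0.549% (0.402 to 0.732). Prtn3 was found in 77.2% (76.2 to 78.1) and 46.3% (45.2 to 47.4), and Ctsg in 39.5% (38.4 to 40.6) and 17.2% (16.4 to 18.05). Prtn3 was thus the most widely found of the 4 genes in both libraries.

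Without thinning, Mpo was found in 72.7% of WT and 10.9% of cKO cells and Elane in 43.6% and 1.79%. Prtn3 was found in 88.7% and 82.8%, and Ctsg in 51.4% and 32.6%. The shares for Prtn3 were close to each other there, although the levels were not, and the cKO cells were read more deeply. Cells gated for another lineage were set beside these shares, and whether their own transcripts add to them was not tested. Among megakaryocyte-gated cells, which carry at least 3 of 8 platelet lineage markers, Mpo was found in 43.9% of WT cells (median depth 5148 UMIs) and 3.15% of cKO cells (12589 UMIs). Elane was found there in 33.8% and 1.57%, so the 1.79% of all cKO cells with an Elane UMI (median depth 9994 UMIs) is within the counting interval of the latter (0.191 to 5.57). Of those cKO cells, 27 held 5 or more Elane UMIs.

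The fall of the mean over thinned cells divides into a part from the share of cells with a UMI and a part from the mean UMIs in those cells. For Mpo the log2 parts were -3.77 and -0.84, and for Elane -5.67 and -0.51. For Prtn3 they were -0.74 and -0.94, and for Ctsg -1.20 and -0.24. The part from the share of cells was thus the larger one for Mpo, Elane and Ctsg. The share with a UMI in megakaryocyte-gated cells at the same depth differed between the libraries too. It was 17.6% of 227 WT cells and 0 of 127 cKO cells for Mpo, 14.98% and 0 for Elane, 39.6% and 25.2% for Prtn3 and 14.1% and 7.09% for Ctsg, where 0 allows up to 3 cells. How much of the first part comes from UMIs of other cells was not tested. Plac8 resembled Prtn3, with -0.73 and -1.31. The part from the share of cells was -2.16 for Ms4a3 and -2.28 for Cst7. In Ms4a3, Ly6c2, Igsf6, Fcgr3 and Cst7 the positive cells held between 1.06 and 1.86 UMIs on average, near the floor of 1 UMI, and no change per positive cell can be read. The positive cKO cells of Prtn3 and Plac8 held 1.68 and 1.957 UMIs, near that floor as well, so their second part is uncertain.

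**Figure D2:**
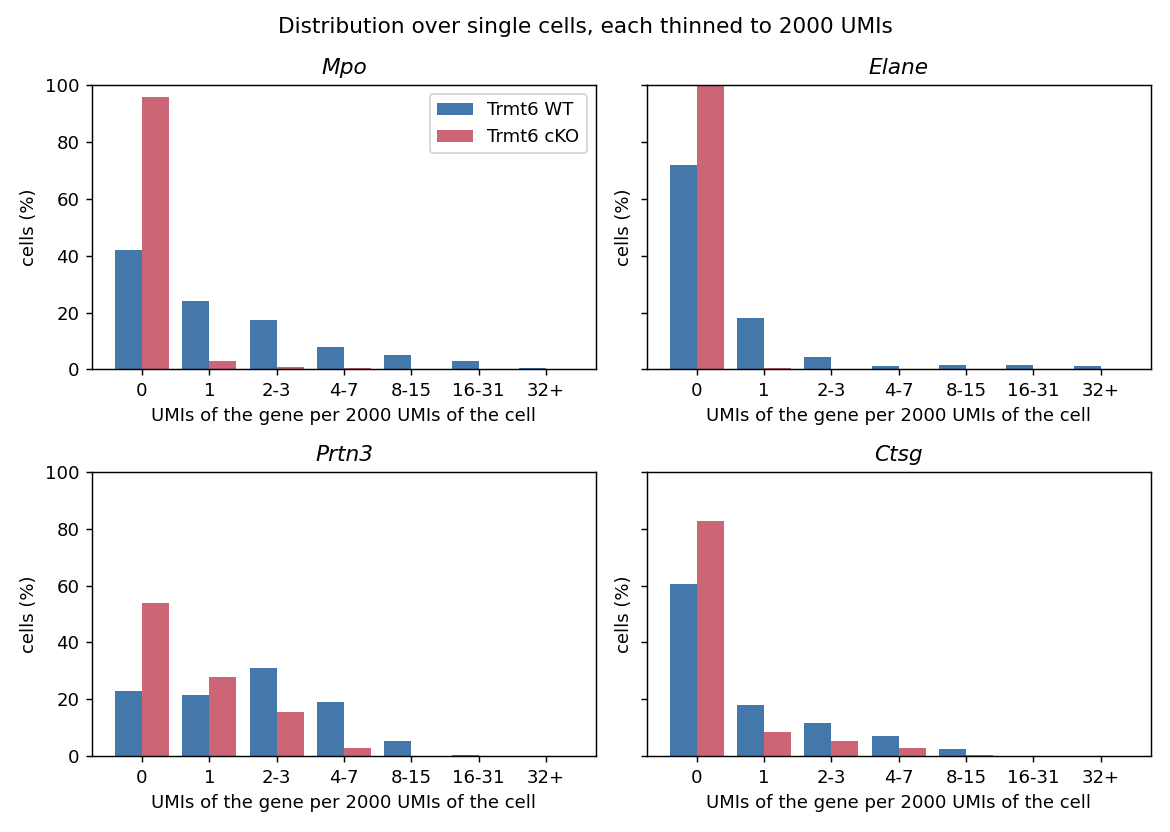
Share of cells (%) by UMIs of the gene per 2000 UMIs of the cell, for Mpo, Elane, Prtn3 and Ctsg, with Trmt6 WT in blue and Trmt6 cKO in red. The zero class holds 42.0% of WT and 95.8% of cKO cells for Mpo, while the Prtn3 bars of both libraries overlap over the low classes.

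The transcripts were also unevenly held. The 1% of WT cells with the most Elane UMIs held 44.7% of all Elane UMIs, against 22.6% for Mpo, 18.7% for Ctsg and 12.1% for Prtn3. In cKO the same shares were 95.8% for Elane, 69.3% for Mpo, 25.1% for Ctsg and 10.3% for Prtn3. What remained of Elane and Mpo in cKO was therefore in few cells, and what remained of Prtn3 was spread. The Fano factor of thinned cells, the variance over the mean, was 31.97 for Elane and 2.90 for Prtn3 in WT and 14.5 and 1.67 in cKO. The top 10% of cKO cells held 81.5% of the Ctsg UMIs but 34.8% of the Prtn3 UMIs, so the genes with the smallest falls differed from each other in this respect.

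Cells with 5 or more UMIs of a gene per 2000 UMIs show what accompanied it, and since they were chosen on that gene this is a description. There were 417 such WT cells and 8 such cKO cells for Elane. In the 8 cKO cells Mpo stood at a mean of 8750 CPM, Prtn3 at 5125 CPM and Ctsg at 6875 CPM, and 7 of the 8 fell in the granulocyte-monocyte (GM) gate defined below. In the 417 WT cells the same means were 9543, 4300 and 3406 CPM. Cells with all 4 transcripts at high level were thus present in the cKO library, in small number.

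For Ctsg there were 549 such WT cells and 180 such cKO cells. The WT cells carried a mean of 7373 CPM Mpo and 6962 CPM Elane, and Elane was found in 73.6% of them. The cKO cells carried a mean of 1203 CPM Mpo and 364 CPM Elane, and Elane was found in 10.6% of them. The mean level of Ctsg itself was 3825 CPM in WT and 3519 CPM in cKO, which the choice of the cells largely sets. The cKO cells held less of the other granule transcripts. The 2 sets of cells were not matched, as 57.4% of the WT and 17.8% of the cKO cells fell in the GM gate. For Prtn3 there were 1310 WT and 103 cKO such cells, with Ctsg in 74.0% and 34.0% of them.

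Counted by how many of Mpo, Elane, Prtn3 and Ctsg a thinned cell showed, 9.11% of WT cells and 43.9% of cKO cells showed none. All 4 were found in 945 WT cells (11.9%) and 23 cKO cells (0.274%). Prtn3 was the sole transcript of the 4 in 16.4% of WT and 37.5% of cKO cells, and Ctsg in 1.91% and 8.14%. Mpo was the sole transcript in 5.11% and 0.740%. In megakaryocyte-gated cells Prtn3 was the sole transcript in 22.0% of WT (16.8 to 28.0) and 23.6% of cKO cells (16.5 to 31.97). These shares also depend on how often the other 3 genes were found.

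**Figure D3:**
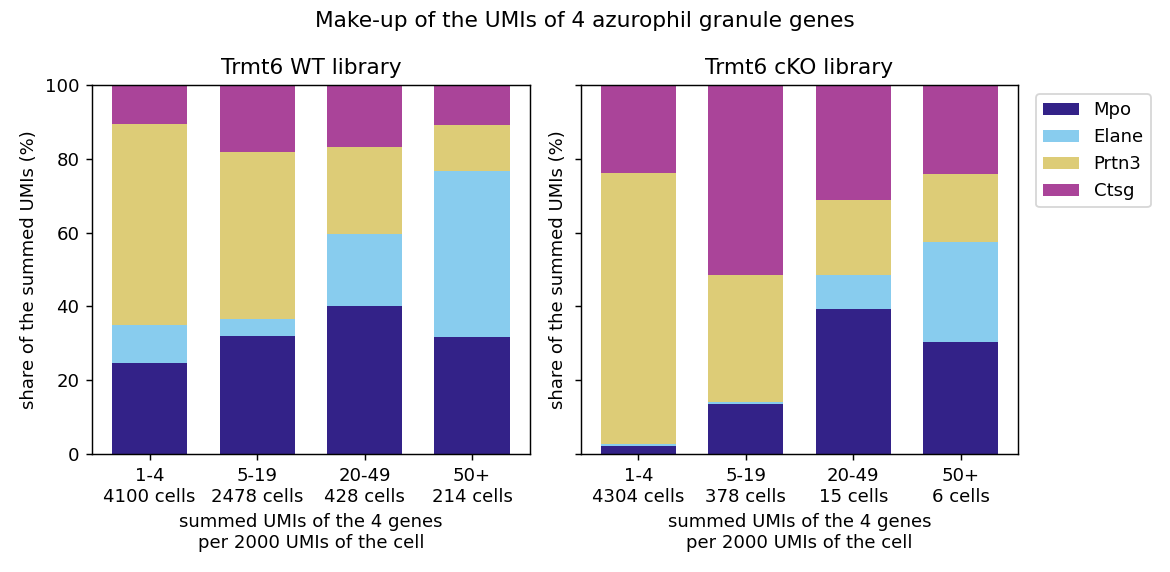
Share (%) of the summed Mpo, Elane, Prtn3 and Ctsg UMIs that each gene holds, in cells grouped by their summed UMIs of the 4 genes per 2000 UMIs, with the number of cells under each bar. In cells with 1 to 4 summed UMIs Prtn3 holds 54.3% in WT and 73.6% in cKO. The Elane share is highest in the cells with 50 or more, which number 214 in WT and 6 in cKO.

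The make-up of the summed UMIs changed with the number a cell held, as the plot of shares shows. In WT cells with 1 to 4 summed UMIs, Prtn3 held 54.3% and Elane 10.2%, whereas in the 214 cells with 50 or more Prtn3 held 12.6% and Elane 44.9%. In cKO cells with 1 to 4 summed UMIs, Prtn3 held 73.6%, Ctsg 23.8%, Mpo 2.32% and Elane 0.302%. In the 378 cKO cells with 5 to 19, Ctsg held 51.4%. In the 6 cKO cells with 50 or more, Mpo held 30.5%, Elane 27.1%, Prtn3 18.2% and Ctsg 24.2%. The Prtn3 share was thus highest in cells with few granule UMIs in both libraries. Those 6 cKO cells are too few for their shares to be set against the WT shares.

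The depth of a cell went with the level of some genes. Cells of each library were put into 5 groups of near-equal size by their UMIs. Ctsg stood at 161 CPM in the shallowest and 1865 CPM in the deepest WT group, and at 48.0 and 602 CPM in cKO. Elane stood at 3907 CPM in the deepest WT group and between 147 and 244 CPM in the other 4. In cKO, Prtn3 stood at 528 CPM in the shallowest and 328 CPM in the deepest group. Mpo stood at 14.01 and 193 CPM in the same cKO groups. Deeper cKO cells thus held more Ctsg and Mpo and less Prtn3 per UMI, and the part of depth in the differences was not tested.

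Pairs of genes were also compared over thinned cells, as a description over cells of 1 library that share its depth. In WT the highest Pearson r of the 45 pairs was that of Mpo and Ctsg (0.57, 7944 cells), and Mpo and Elane gave 0.43 and Prtn3 and Ctsg 0.39. In cKO (8380 cells) Mpo and Ctsg gave 0.42 and Mpo and Elane 0.35, but Prtn3 and Ctsg gave 0.05. The genes outside the set with the highest r with the summed granule UMIs were Ap3s1 (0.32), Calr (0.27), Alas1 (0.27), Ccl9 (0.25) and H2afy (0.24) in WT. In cKO they were Serpinb1a (0.13), Ap3s1 (0.12), Cox6a2 (0.11), Cdk6 (0.11) and Fcer1g (0.10), and such weak values in sparse counts are no finding.

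Cells were next gated by markers that are not among the 10 genes. The GM gate took cells with a UMI of at least 4 of 12 granulocyte-monocyte genes, the lymphoid progenitor gate 3 of 7 genes, the haematopoietic stem cell (HSC) gate 4 of 8 and the megakaryocyte gate 3 of 8. These gates held 710, 701, 72 and 228 WT cells and 56, 313, 947 and 127 cKO cells, while 6178 WT and 6745 cKO cells passed no gate. The other gates held between 7 and 20 WT cells and between 0 and 73 cKO cells, and 181 WT and 114 cKO cells passed more than 1 gate. Because a deeper cell shows more markers, gate sizes are not compared between libraries. In the GM, lymphoid progenitor, HSC and megakaryocyte gates the cKO cells were also deeper, with a median of 19042 UMIs in the GM gate against 10713 in WT. They were shallower in the gate for T or NK cells (1938 against 3405 UMIs) and in that for basophils or mast cells (4082.5 against 6763 UMIs). The gates are names for a marker count and not for a cell type.

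In GM-gated cells the 4 granule genes did not all fall. Mpo stood at 7114 CPM in WT (7055 to 7173) and 3033 CPM in cKO (2927 to 3142), and Elane at 6585 CPM (6528 to 6642) and 1164 CPM (1099 to 1233). Prtn3 stood at 3520 CPM (3479 to 3562) and 1877 CPM (1794 to 1964). Ctsg stood at 2666 CPM in WT (2630 to 2702) and 3505 CPM in cKO (3390 to 3622), a log2 ratio of 0.39 (0.34 to 0.45). Mpo, Elane and Prtn3 were lower, with log2 ratios of -1.23, -2.50 and -0.91, and Ctsg was higher. Of the 10 genes, 6 were lower past -1 in this gate, where 5.91% of 8650 genes were and all 10 genes stood above 5 CPM in both libraries.

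The falls were smaller in this gate than over all cells, and the order of the 4 genes was kept. Prtn3 fell less than Mpo by 0.32 (0.24 to 0.41) in GM-gated cells. The remaining genes stood at 4739 and 2325 CPM for Plac8, 488 and 323 CPM for Ms4a3, 418 and 164 CPM for Ly6c2 and 235 and 156 CPM for Cst7. Igsf6 stood at 111 and 29.5 CPM and Fcgr3 at 72.7 and 29.5 CPM, each on 30 UMIs in cKO. When the gate was set on cells thinned to 2000 UMIs, a choice made after seeing the data, 141 WT and 2 cKO cells passed, and the log2 ratios were 0.044 for Mpo, -1.12 for Elane, 0.38 for Prtn3 and 1.12 for Ctsg. The cKO side of the GM comparison thus rests on cells found through their depth.

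In lymphoid progenitor-gated cells Ctsg again stood apart from the other 3 granule genes. Mpo stood at 722 CPM in WT against 68.7 CPM in cKO (log2 ratio -3.39), Elane at 137 and 1.997 CPM (-6.00) and Prtn3 at 812 and 131 CPM (-2.63). Ctsg stood at 453 CPM in WT (432 to 476) and 491 CPM in cKO (469 to 515), a log2 ratio of 0.12 (0.02 to 0.21). With the gate set on thinned cells, and all UMIs of the genes counted, the Prtn3 ratio was -3.72 (-4.65 to -3.01) and that of Mpo -3.51. The Ctsg ratio in this gate was -0.28 (-0.67 to 0.09) on 237 WT and 40 cKO cells when the gate was set on thinned cells. With doublets kept it was 0.064 (-0.027 to 0.155). Both intervals included 0, so no difference was detectable under either choice.

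In HSC-gated cells Prtn3 was the most widely found of the 4 granule transcripts. It was found in 97.2% of WT and 92.2% of cKO cells (median depth 3387 and 9066 UMIs), beside 68.9% and 69.3% of the megakaryocyte-gated cells (5148 and 12589 UMIs). Its level in the HSC-gated cells was 900 CPM (792 to 1019) and 398 CPM (385 to 412). Ctsg stood at 148 CPM in WT against 30.4 CPM in cKO (log2 ratio -2.30), the reverse of the GM gate. Mpo stood at 274 and 6.21 CPM and Elane at 112 and 0.222 CPM, the latter from 2 UMIs against 3593 of Prtn3 in the same 947 cells. In WT HSC-gated cells Elane was found in 34.7% (23.9 to 46.9), beside 33.8% of the deeper megakaryocyte-gated cells at 80.6 CPM, so no excess over them was detectable in the share. On gates set in thinned cells, with 17 WT and 42 cKO cells, Prtn3 stood at -0.44 and Ctsg at -4.44.

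In megakaryocyte-gated cells Prtn3 stood at 265 and 146 CPM (log2 ratio -0.86) and Ctsg at 60.0 and 31.4 CPM (-0.93), but at -2.07 and -3.80 on gates set in thinned cells (93 WT and 9 cKO cells). Ms4a3 stood at 39.5 CPM in WT (29.1 to 52.3) and 40.8 CPM in cKO (31.5 to 52.0), a log2 ratio of 0.043 (-0.51 to 0.62), so no difference was detectable at this depth. In ungated cells, which held most of the cKO UMIs, Ctsg stood at 521 and 255 CPM (-1.03, and -1.73 on gates set in thinned cells) and Prtn3 at 1185 and 348 CPM (-1.77). In the same ungated cells Mpo stood at 1001 and 44.8 CPM (-4.48) and Elane at 366 and 3.09 CPM (-6.88).

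**Figure D4:**
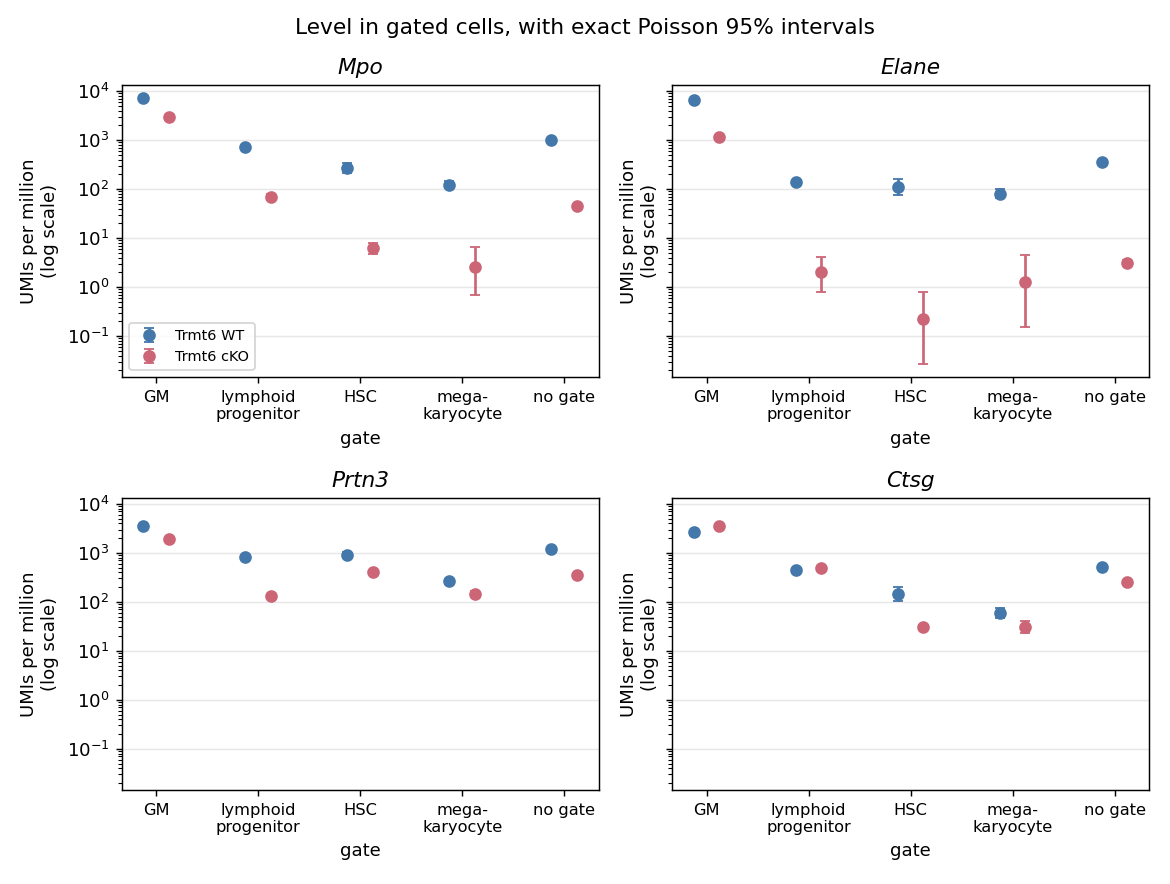
Level of Mpo, Elane, Prtn3 and Ctsg in CPM (log axis) in GM-, lymphoid progenitor-, HSC- and megakaryocyte-gated cells and in cells of no gate, with Trmt6 WT in blue, Trmt6 cKO in red and exact Poisson 95% intervals. The cKO point of Ctsg lies at or above the WT point in the first 2 gates and below it in the HSC gate, while the Mpo and Elane points of cKO lie below those of WT in every gate shown.

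Ratios of 2 transcripts inside a library need no scaling between libraries, though they moved with the depth of the cells as given above. Over all kept cells, Prtn3 per Mpo was 0.728 in the WT library (0.721 to 0.736) and 4.60 in the cKO library (4.48 to 4.72). In GM-gated cells it was 0.495 and 0.619, and in HSC-gated cells 3.29 (2.54 to 4.31) and 64.2 (49.3 to 85.1). The ratio was thus higher in HSC-gated than in GM-gated cells of both libraries. Elane per Mpo was 0.926 in GM-gated WT cells and 0.190 in lymphoid progenitor-gated WT cells, and 0.384 and 0.0290 in cKO. When each gate was given the share of UMIs that it had in WT, a choice made after seeing the data, the log2 ratios were -1.82 for Mpo, -2.87 for Elane, -1.39 for Prtn3 and -0.066 for Ctsg. This raised the 56 cKO cells of the GM gate from 1.17% to 18.9% of the UMIs. Only 2 cKO cells passed that gate when it was set on thinned cells, so these values depend on cells found through their depth.

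The UMIs of each gene also lay in different gates. In WT, GM-gated cells held 74.4% of the Elane, 61.8% of the Mpo, 54.6% of the Ctsg and 42.0% of the Prtn3 UMIs. In cKO they held 74.4% of the Elane, 46.0% of the Mpo, 14.9% of the Ctsg and 6.19% of the Prtn3 UMIs. The GM-gated cells held 18.9% of all kept UMIs in WT and 1.17% in cKO. Ungated cells held 79.1% of the Prtn3 and 74.8% of the Ctsg UMIs of cKO, beside 80.5% of all kept cKO UMIs. Among the 4 genes, Prtn3 and Ctsg thus had the smallest shares of their UMIs in the GM gate in both libraries. For Fcgr3, 31.5% of its 124 cKO UMIs lay in the 34 cells of the basophil or mast gate, where it stood at 238 CPM (95.9 CPM in 20 WT cells).

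T or NK cells should lack the granule transcripts, and T/NK-gated cells (at least 3 of 17 markers present in the files) were used to ask how many UMIs such cells carry. There were 14 in WT (median 3405 UMIs) and 73 in cKO (median 1938 UMIs). Ccl5 was found in 85.7% and 75.3% of them, Lck in 71.4% and 58.9% and Klrk1 in 42.9% and 63.0%, whereas Kit was found in 1 and 8 cells. Of the 17 markers, 16 had a UMI in the WT cells, where Cd3e was at 0, and 17 in the cKO cells. Ly6g and Itgam were at 0 in the gate in both libraries.

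The WT T/NK-gated cells held 25 Mpo UMIs in 7 cells, or 462 CPM (299 to 681). They held 9 Elane UMIs, or 166 CPM (76.0 to 315), 12 Prtn3 UMIs, or 222 CPM (114 to 387), and 14 Ctsg UMIs, or 258 CPM (141 to 434). Each of the 4 transcripts was present, at a level below that of the whole WT library. With the gate set on cells thinned to 2000 UMIs this did not hold for Mpo. The 4 WT cells that passed held 51 Mpo UMIs, or 2325 CPM (1731 to 3057), an interval that includes the 2181 CPM of the library. Prtn3 stood there at 1550 CPM (1073 to 2166), which includes its 1588 CPM over the library. Elane stood at 319 CPM and Ctsg at 638 CPM, below their library levels. No Ms4a3 UMI was found, which allows up to 3 UMIs or 55.4 CPM.

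The cKO T/NK-gated cells held 1 Mpo UMI, or 4.10 CPM (0.104 to 22.8), and no Elane UMI, which allows up to 3 UMIs or 12.3 CPM. They held 28 Prtn3 UMIs in 11 cells, or 115 CPM (76.3 to 166), and 51 Ctsg UMIs in 6 cells, or 209 CPM (156 to 275). Of the 51 Ctsg UMIs, 29 lay in 1 cell and 94.1% in 3 cells, and 71.4% of the Prtn3 UMIs lay in 3 cells. In WT, 3 of the 14 cells held 76% of the Mpo, 78.6% of the Ctsg, 55.6% of the Elane and 50% of the Prtn3 UMIs. Many of the granule UMIs of this gate were thus held by few cells in both libraries, which the intervals do not cover. With 5 or more markers required, 59 cKO cells remained and held 21 Ctsg and 28 Prtn3 UMIs, and with markers counted at 1000 UMIs per cell the Ctsg level was 17.5 CPM in cKO, while 5 WT cells held Mpo at 211, Elane at 316 and Ctsg at 527 CPM. With 2 or more markers, 40 WT and 155 cKO cells passed, and Mpo stood at 616 and 26.7 CPM and Prtn3 at 765 and 274 CPM.

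B-gated cells (at least 4 of 11 markers) were 7 in WT and 48 in cKO. In cKO they held 4 Mpo, 2 Elane, 10 Prtn3 and 6 Ctsg UMIs at a median depth of 6053 UMIs, so Prtn3 stood at 31.99 CPM (15.3 to 58.8) beside 355 CPM over all cells. With doublets kept, 54 cKO cells held 44 Prtn3 UMIs (108 CPM), and 9 WT cells held Mpo at 438 CPM in place of 162 CPM. In WT they held 5, 5, 8 and 1 UMIs. The megakaryocyte-gated cells, added to this set after seeing the data because they were more numerous, stood at 122 CPM Mpo and 80.6 CPM Elane in WT and at 2.51 and 1.26 CPM in cKO. With doublets kept, the WT and cKO levels were 185 and 6.39 CPM for Mpo, 94.4 and 2.32 CPM for Elane and 128 and 64.5 CPM for Ctsg in that gate. Across the 3 gates at these marker limits, doublets removed, Mpo thus lay between 122 and 462 CPM in WT and between 2.51 and 12.8 CPM in cKO.

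**Figure D5:**
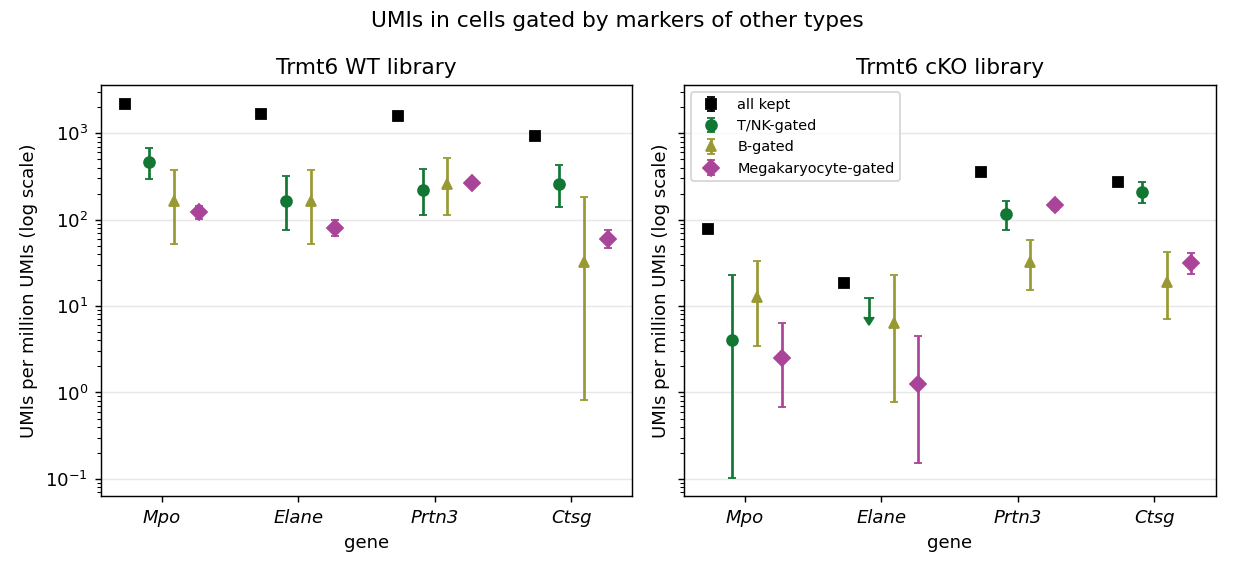
Level of Mpo, Elane, Prtn3 and Ctsg in CPM (log axis) over all kept cells (black) and in T/NK-, B- and megakaryocyte-gated cells of the Trmt6 WT library (left) and the Trmt6 cKO library (right), with exact Poisson 95% intervals. The arrow starts at the level of 3 UMIs, the limit for Elane, which had none in cKO T/NK-gated cells. Mpo and Elane are present in all 3 gates of WT and lie far lower in those of cKO.

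The ratios of the transcripts to each other in these gates were set beside those of the whole library, first in WT. Elane per Mpo was 0.768 over the WT library, 0.662 in megakaryocyte-gated cells (0.508 to 0.860) and 0.360 in T/NK-gated cells (0.148 to 0.797). Prtn3 per Mpo was 0.728 over the WT library, 0.480 in T/NK-gated cells (0.220 to 0.991) and 2.18 in megakaryocyte-gated cells (1.79 to 2.66). In WT the intervals of both T/NK ratios and of the megakaryocyte Elane ratio thus included the library value, and the megakaryocyte Prtn3 ratio lay above it. In cKO, Prtn3 per Mpo was 4.60 over the library. It was 28 in T/NK-gated cells (4.63 to 1145) and 58.3 in megakaryocyte-gated cells (22.4 to 216), above the library value, on 1 and 4 Mpo UMIs. In B-gated cKO cells it was 2.5 (0.721 to 10.9). Elane per Mpo in megakaryocyte-gated cKO cells was 0.5 (0.0452 to 3.49), beside 0.237 over that library. Whether free RNA, doublets or transcripts of the cells themselves gave these UMIs was not tested. When the T/NK- and B-gated level was subtracted from each library, the log2 ratios were -4.75 for Mpo, -6.68 for Elane, -2.24 for Prtn3 and -2.12 for Ctsg. These values rest on the 14 and 7 WT cells and the 73 and 48 cKO cells of those gates. Of the 51 Ctsg UMIs in the cKO T/NK gate, 29 lay in 1 cell. When the megakaryocyte-gated level was subtracted they were -4.79, -6.55, -2.67 and -1.83, and the difference between Prtn3 and Mpo was 2.12 in place of 2.66.

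Of the other genes, Plac8, Ly6c2, Fcgr3 and Cst7 are known in T or NK cells, and their UMIs there are not read as spill-over. Ly6c2 and Cst7 each had 37 UMIs in the cKO T/NK-gated cells, or 152 CPM (107 to 209), beside 4.27 and 15.8 CPM over the cKO library. Plac8 stood at 3028 CPM in the 14 WT cells and 385 CPM in the 73 cKO cells. Fcgr3 had 2 and 3 UMIs. In cKO B-gated cells Plac8 stood at 1452 CPM, above its 526 CPM over all cKO cells.

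Genes that act with the granule proteins were compared by the same log2 ratio, in lists chosen with earlier results of these data known. Of 8 genes of protease activation and packaging, 2 were lower past -1 and none was higher past 1, with a median of -0.68. Over all genes tested those shares were 5.24% and 2.92%, against which the count of each list is to be read. Prss57, a serine protease of the same granules, stood at 62.5 and 17.7 CPM (-1.82) and Serpinb1a, an inhibitor of neutrophil serine proteases, at 480 and 198 CPM (-1.28). Ctsc, which removes the propeptide of Elane, Prtn3 and Ctsg, stood at 41.9 and 50.5 CPM (0.27), and Cstb, a cysteine protease inhibitor, at 139 and 123 CPM (-0.19). The gene for the activating enzyme was thus at a like level in both libraries.

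Of 13 other azurophil or lysosomal contents (17 listed), 1 was lower past -1, with a median of -0.31. It was Lyz2, lysozyme, at 470 and 159 CPM (-1.57), followed by Ctsz at -0.75, while the highest were Cd63, a granule membrane tetraspanin, at 313 and 401 CPM (0.36) and Gaa, a lysosomal glucosidase, at 0.21. Of 9 genes for haem supply and folding of myeloperoxidase, 1 was lower past -1, with a median of -0.33. It was Alas1, the first enzyme of haem synthesis, at 111 and 27.8 CPM (-1.99), followed by Calr, a chaperone, at -0.85, and Canx, another chaperone, stood at -0.077. None of 7 granule sorting genes (8 listed) was past -1 or 1, with a median of -0.17, and those at 20 CPM or more ranged from Ap3b1 at -0.36 and Hps1 at -0.065 to Unc13d at -0.0022 and Stxbp2 at 0.022.

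Of 9 myeloid transcription regulators, 4 were lower past -1 and 1 was higher past 1, with a median of -0.99. Cebpe, which drives the later granule stages, stood at 31.2 and 0.542 CPM (-5.83) and Irf8, a monocyte factor, at 191 and 12.8 CPM (-3.90). Gfi1, a repressor needed for granulocytes, stood at 16.5 and 39.4 CPM (1.26) and Cebpb at 132 and 245 CPM (0.89). Cebpe, Irf8 and Gfi1 are also markers of the GM gate. In that gate Cebpe stood at 59.3 and 20.7 CPM, Irf8 at 496 and 101 CPM and Gfi1 at 24.7 and 53.2 CPM.

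Of 21 other early granulocyte-monocyte genes (22 listed), 15 were lower past -1 and none was higher past 1, with a median of -1.99. The lowest were Fcnb, a ficolin, at 30.99 and 0.0461 CPM (-9.22, on 4 UMIs in cKO) and F13a1, a coagulation factor subunit, at 61.9 and 0.726 CPM (-6.40). The highest were Csf3r, the receptor for G-CSF, at 27.7 and 20.2 CPM (-0.45) and Csf2ra, a subunit of the GM-CSF receptor, at 40.5 and 26.0 CPM (-0.64). Csf3r and F13a1 are markers of the GM gate as well. Within it Csf3r stood at 31.3 and 53.2 CPM and F13a1 at 280 and 48.3 CPM.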

How the data were processed

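Single-cell RNA was measured in 1 Trmt6 WT and 1 Trmt6 cKO library. The deposited matrices hold raw UMI counts per gene and barcode. The authors produced them using Cell Ranger 6.0.0 on mm10 (GRCm38). The labels name a 3′ kit v2 and the methods v3. Gene positions came from GENCODE M21 and promoters from RefSeq, both GRCm38.

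The limits of the study were applied: over 200 genes, under 4000 (WT) or 4500 (cKO) genes, under 10% (WT) or 5% (cKO) mitochondrial UMIs and under 5% haemoglobin UMIs. Doublets were scored by simulated pairs (50 neighbours, 20 components, 1500 genes) and removed at 0.8% per 1000 barcodes (614 WT, 666 cKO cells). Each log2 ratio sets cKO over WT after adding 0.5 counts. Intervals are exact Poisson (CPM), Clopper-Pearson (shares) and conditional binomial (ratios), and normal for differences of log2 ratios. A count of 0 allows 3. A cell in more than 1 gate was left ungated as several. With 1 library per group no test was run. Scripts were tested on simulated data and used Python 3.11, scipy 1.17.1 and edgeR 4.0.16 (TMM).

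All 10 genes were named, and from each list the 2 lowest and 2 highest genes at 20 CPM or more, of which 1 is not reported here. The genes, lists and gates were chosen with earlier results of these data known. Alternatives covered scaling, filters, doublets, thinning, gates and subtraction of background.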

Additional observations from a re-analysis of the deposited data

Results flagged for a closer look

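Ctsg was higher in cKO than in WT cells of 2 gates and lower in the HSC gate, the megakaryocyte gate and cells of no gate. Its log2 ratio (cKO over WT) was 0.39 in GM-gated cells and 0.12 in lymphoid progenitor-gated cells, and -2.30 in HSC-gated cells, -0.93 in megakaryocyte-gated cells and -1.03 in cells of no gate. The difference between gates was not tested, since each genotype has 1 library. On gates set in thinned cells the value was 1.12 in the GM gate, with 2 cKO cells, and -0.28 (-0.67 to 0.09) in the lymphoid progenitor gate. With doublets kept it was 0.38 in the GM gate and 0.064 (-0.027 to 0.155) in the lymphoid progenitor gate. No difference was thus detectable in the lymphoid progenitor gate under either choice.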

How the results depend on the processing

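All 10 genes were lower past a log2 ratio of -1 under every alternative for that count but 2, each of which gave 9: giving each gate its WT share of UMIs, where Ctsg stood at -0.066, and a minimum of 20 CPM, which drops Fcgr3 and leaves 9 genes. No log2 ratio over all cells changed sign. TMM factors, median-of-ratios size factors and totals that omit mitochondrial and ribosomal protein genes each moved every log2 ratio up by 0.10. In GM-gated cells the ratio of Mpo was 0.044 when gates were set on thinned cells, where 2 cKO cells passed, against -1.23 as reported, and the cause was not tested. On the same gates Prtn3 turned from -0.91 to 0.38 in GM-gated cells. Ctsg moved from 0.12 to -0.28 in lymphoid progenitor-gated cells, where its interval (-0.67 to 0.09) included 0. Without the 1% of cells with the most UMIs of each gene, the ratios were -6.18 for Mpo, -10.24 for Elane, -7.73 for Ly6c2, -12.01 for Igsf6 and -10.73 for Fcgr3, so Elane was not the deepest fall there. Falls were smaller for Elane with all barcodes as deposited (-5.47), for Ly6c2, Igsf6 and Fcgr3 by the mean CPM of single cells (-3.11, -4.42 and -2.36) and for Ms4a3, Ly6c2, Igsf6 and Fcgr3 in thinned cells (-2.50, -3.65, -4.16 and -2.72). Of 310 alternative values over all results, 121 stayed close to the reported value (within its counting interval or, for the count, within 1.5 times), 188 moved further and 1 called value changed sign. No paired analysis was possible because each genotype has 1 library, and no replicate could be left out. The depth of the gated cells limits the values in T/NK- and B-gated cells.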
